A study of Mus musculus with 7 samples.

Results

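Hox genes encode homeodomain transcription factors that pattern the head-to-tail axis of the embryo, and in mammals they lie in the 4 clusters HoxA, HoxB, HoxC and HoxD. Chromatin accessibility at these clusters was compared between wild-type (WT) and Smad2/3 double-knockout (DKO) epiblast-like cells (EpiLCs) by ATAC-seq, in which the Tn5 transposase inserts adapters into accessible DNA. Given a list of genes, drawn up with earlier results of these data known, the accessible sites were chosen by position alone. A site was taken where its midpoint lay within 20 kb of a curated RefSeq transcription start site (TSS) of 38 listed Hox genes, which gave 35 of the 75880 sites in the deposited table.

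EpiLCs model the primed epiblast and were obtained here by growing naive embryonic stem cells for 2 days in Fgf2, Activin A and KSR. WT cells were the CCE clone, and DKO cells were the clone KT15.1F6, made by deleting exon 1 of Smad3 in cells homozygous for the targeted allele Smad2tm1Rob. Both are of the strain 129/Sv//Ev and are XY lines, and each genotype was represented by 1 clone and 3 separate differentiations, so that clone and genotype cannot be told apart. Each reaction used 75000 cells, and 100 ng of WT genomic DNA served as the Tn5 control when the authors called sites.

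Genes of the same number in different clusters are paralogues. Those at the 3′ end of a cluster (low numbers) act anteriorly and early, and those at the 5′ end (up to paralogue group 13) act posteriorly and late. In pluripotent cells the clusters are mostly silent and are a textbook target of Polycomb repression over CpG-rich promoters. Nodal/Activin signals act through Smad2/3 in the epiblast from which the axial tissues that express Hox genes arise.

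For each site the authors give the concentration, the log2 of the mean normalized reads over the libraries of a genotype, so that a concentration of 4 stands for a mean of 16 normalized reads. The table holds no value per library. Depth per library and the spread between differentiations are therefore unknown here, and the differences below, DKO minus WT in log2 concentration, have no replicate check and no test. A difference of 0.58 is a fold change of 1.5, the fold used in the study's methods. Of all listed sites, 16.0% were at least 1.5-fold lower in DKO and 8.51% at least 1.5-fold higher, with a median difference of -0.08. Near the primed epiblast genes Fgf5, Otx2, Pou3f1, Dnmt3b and Pou5f1 there were 25 sites with a median WT concentration of 5.30, and near the endoderm genes Sox17, Gata6 and Gata4 there were 10 with a median of 5.51, so site levels alone do not check the cell type label.

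The 8 Hox sites past 1.5-fold carry the largest differences between the genotypes. The sequences of 6 of them are given here, in mm10 (GRCm38) coordinates and on the strand of the gene, with every CpG dinucleotide in capitals and with bases of untranslated regions left out. They differ widely in CpG content, from 2 CpGs in 210 bases at Hoxb1 to 38 in 240 bases at Hoxd11.

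The first 3 were lower in DKO. They are the upstream bases of the site on the Hoxc4 TSS (chr15:103034271-103034394, plus strand), the whole site 1207 bp upstream of the Hoxc9 TSS (chr15:102975741-102975910, plus strand), and the upstream bases of the site on the Hoxa5 TSS (chr6:52204588-52204660, minus strand).

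Hoxc4: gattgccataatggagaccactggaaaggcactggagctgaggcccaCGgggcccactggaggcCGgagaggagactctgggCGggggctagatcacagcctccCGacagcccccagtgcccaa

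Hoxc9: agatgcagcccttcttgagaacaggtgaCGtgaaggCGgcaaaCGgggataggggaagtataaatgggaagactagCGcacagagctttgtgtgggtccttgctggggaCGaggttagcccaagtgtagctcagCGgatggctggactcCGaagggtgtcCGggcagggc

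Hoxa5: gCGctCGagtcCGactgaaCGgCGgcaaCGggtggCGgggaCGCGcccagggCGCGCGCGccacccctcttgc

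The next 3 were higher in DKO. The Hoxb1 site lies 1813 bp upstream of the TSS (chr11:96363841-96364050, plus strand) and contains a run of 23 T. The Hoxd11 site lies in the coding sequence, 297 bp downstream of the nearer of its listed TSSs (chr2:74682501-74682740, plus strand). Of the site on the Hoxd9 TSS, the coding bases from the start codon are shown (chr2:74698056-74698190, plus strand).

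Hoxb1: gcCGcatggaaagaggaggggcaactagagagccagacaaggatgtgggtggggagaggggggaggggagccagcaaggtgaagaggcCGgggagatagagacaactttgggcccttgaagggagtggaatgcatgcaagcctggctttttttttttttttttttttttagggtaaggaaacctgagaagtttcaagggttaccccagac

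Hoxd11: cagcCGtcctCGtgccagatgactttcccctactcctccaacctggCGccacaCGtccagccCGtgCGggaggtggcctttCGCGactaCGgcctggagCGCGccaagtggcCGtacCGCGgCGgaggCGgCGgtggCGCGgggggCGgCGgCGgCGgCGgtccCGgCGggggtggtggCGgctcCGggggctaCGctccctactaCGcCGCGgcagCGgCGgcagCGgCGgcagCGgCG

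Hoxd9: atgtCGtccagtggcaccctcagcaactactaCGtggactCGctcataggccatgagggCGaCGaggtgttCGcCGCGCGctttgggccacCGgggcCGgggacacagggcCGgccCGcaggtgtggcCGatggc

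For contrast, the 300 bases upstream of the Hoxd13 TSS (chr2:74667925-74668224, plus strand) belong to a site of high concentration whose values were close in both genotypes. They hold 33 CpGs.

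Hoxd13: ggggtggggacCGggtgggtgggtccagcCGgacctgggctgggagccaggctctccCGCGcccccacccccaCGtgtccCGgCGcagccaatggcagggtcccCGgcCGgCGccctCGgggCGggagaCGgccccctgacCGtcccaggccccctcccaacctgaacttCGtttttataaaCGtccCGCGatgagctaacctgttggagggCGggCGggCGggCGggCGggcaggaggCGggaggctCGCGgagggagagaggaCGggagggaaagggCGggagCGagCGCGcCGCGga

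Sites were unevenly spread over the clusters. HoxC had 16 sites and HoxD 11, whereas HoxA and HoxB had 4 each, so 77.1% of the Hox sites were in HoxC or HoxD. Between the outermost listed TSSs lay 14 of the HoxC sites (12.4 per 100 kb), 7 of the HoxD sites (7.38 per 100 kb), 3 of the HoxA sites (3.12 per 100 kb) and all 4 HoxB sites (2.34 per 100 kb). The HoxB span of 171 kb takes in the long stretch between Hoxb9 and Hoxb13, which holds no listed site. The rank of HoxB below HoxA depends on counting that stretch. Sites were 150 to 1930 bp wide. The farthest was 12335 bp from a listed TSS, with the next site beyond 20 kb at 20470 bp, also nearest to Hoxd13 (WT 4.99, DKO 4.42).

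Relative to the rest of the genome, few Hox promoters had a site. Only 12 of the 38 genes (31.6%) had a site midpoint within 1 kb of a TSS, against 66.1% of 21000 genes with a curated protein-coding transcript. Those 12 were 6 of the 9 listed HoxC genes, 5 of 9 HoxD genes, Hoxa5 in HoxA and none of the 10 HoxB genes. Another 22 genes had a site farther off, within 20 kb, and Hoxa10, Hoxa11, Hoxa13 and Hoxb13 had none. A gene without a listed site had no site pass the authors' calling, which does not show that its promoter was inaccessible.

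**Figure D1:**
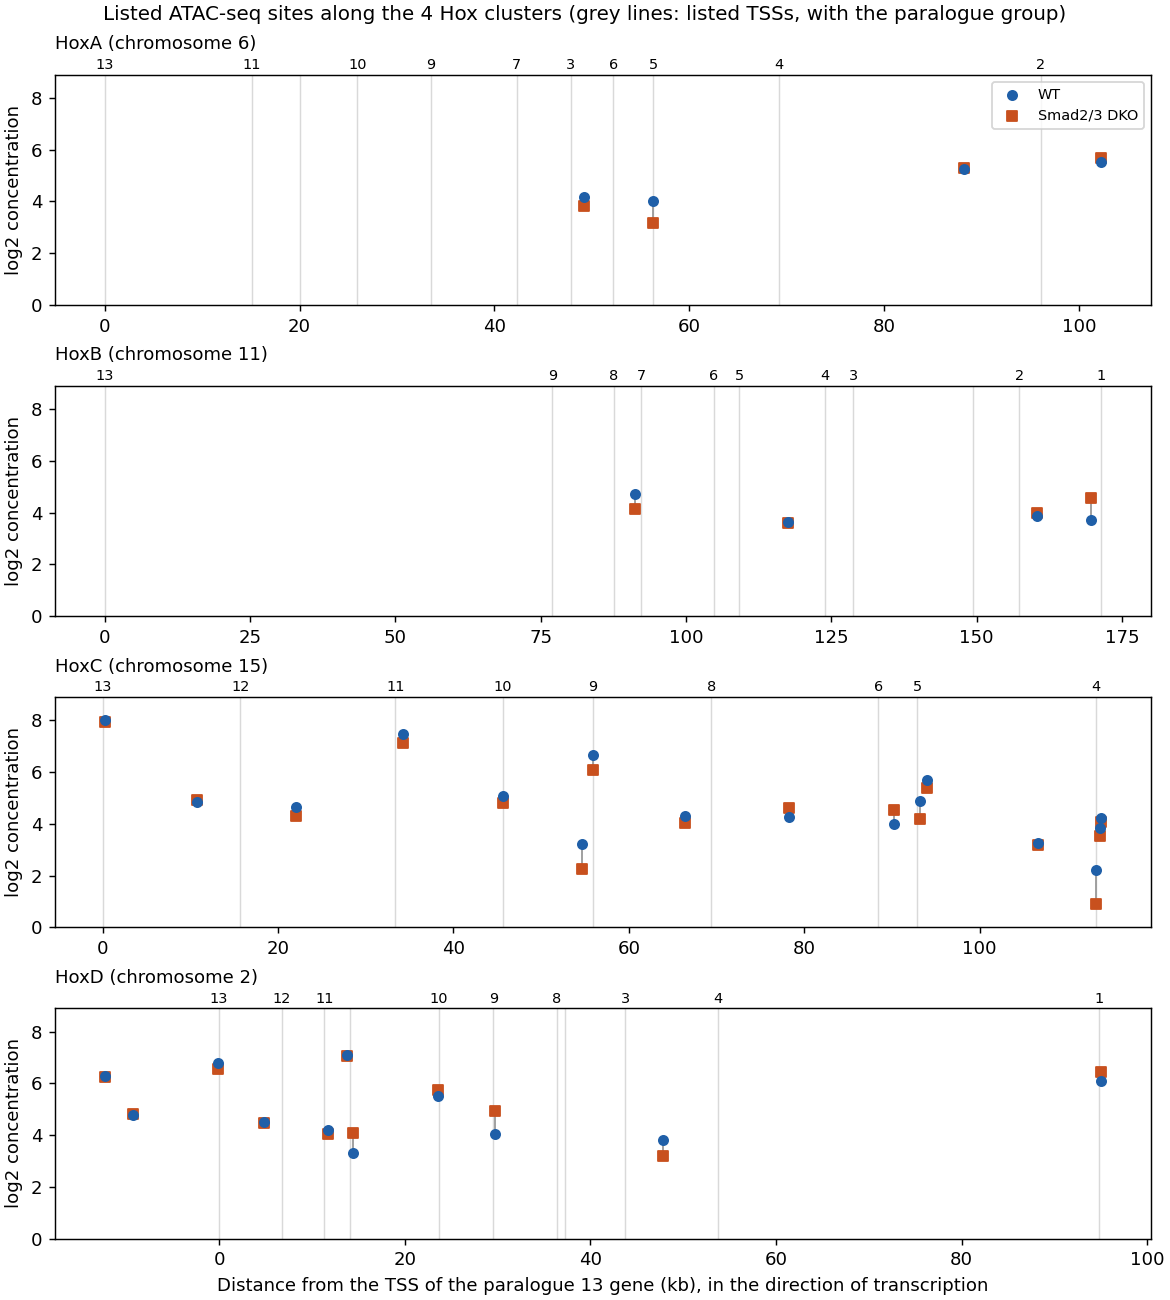
Log2 concentration of the 35 Hox sites in WT (circles) and DKO (squares), as the authors' means, by distance in kb from the TSS of the paralogue 13 gene of each cluster, in the direction of transcription; a thin line joins the values of a site. Sites are dense and reach 8.03 in HoxC, while the region around Hoxa9 to Hoxa13 has no site.

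The highest concentrations were at the posterior end of HoxC, at Hoxc13 and Hoxc11. The site spanning the TSS of Hoxc13, a gene required in hair and nail, had a concentration of 8.03 in WT and 7.94 in DKO, the highest of the 35. At Hoxc11, a 1930 bp site had 7.47 and 7.13. At Hoxc9, a site 1570 bp wide and centred 17 bp from the TSS had 6.67 and 6.10, below the strongest HoxD sites. These posterior sites were all lower in DKO, with differences of -0.09, -0.34 and -0.57, and none reached 1.5-fold. The narrow Hoxc10 promoter site had 5.07 in WT and 4.81 in DKO.

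The HoxC sites at least 1.5-fold lower in DKO lay at Hoxc4, Hoxc9 and Hoxc5. On the Hoxc4 TSS, a 150 bp site had 2.23 in WT and 0.90 in DKO, a difference of -1.33 and the largest in the clusters in either direction. In reads this is a mean of 4.69 against 1.87, so the ratio of 2.51 rests on few reads. The site 1207 bp upstream of Hoxc9 had 3.21 and 2.26 (difference -0.95), or 9.25 against 4.79 reads. At Hoxc5, the 540 bp site centred 312 bp into the gene had 4.87 and 4.18, a difference of -0.69. Each of these sites has a larger or stronger neighbour within 320 bp, and the neighbours differed less. Next to the Hoxc9 site is the promoter site above, next to the Hoxc5 site is one with 5.71 and 5.40, and beyond the Hoxc4 site are a pair of exonic sites with 3.86 and 3.53, and 4.24 and 4.07.

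Some HoxC sites were higher in DKO. In the Hoxc6 untranslated region, 1763 bp downstream of the TSS, a site had 3.99 in WT and 4.53 in DKO (difference 0.54, just short of 1.5-fold). A site 8811 bp downstream of the Hoxc8 TSS had 4.25 and 4.60. The site 4901 bp upstream of the Hoxc12 TSS had 4.85 and 4.93. The remaining HoxC sites were lower in DKO, with differences of -0.06 at 6640 bp upstream of Hoxc4, -0.29 at 3019 bp upstream of Hoxc8 and -0.36 at 6369 bp downstream of Hoxc12. In all, 13 of the 16 HoxC sites were lower in DKO by any amount, beside 57.4% of all listed sites, and the median HoxC difference was -0.30.

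Sites around HoxC were compared with the 57.4% lower and the median of -0.08 over all sites. Over 20 kb and up to 200 kb from the HoxC TSSs, 19 of 28 sites were lower in DKO, with a median difference of -0.23, and from 200 kb to 5 Mb the share was 61.5% of 247 sites, with a median of -0.13. From summed reads the HoxC flank had a log2 ratio of DKO to WT of -0.09 and the wider region -0.05, beside -0.07 for all sites, while the HoxC sites themselves had -0.23. For HoxA the corresponding medians were -0.02 (7 sites) and -0.01 (244 sites), for HoxB -0.01 (8 sites) and -0.07 (390 sites), and for HoxD 0.10 (7 sites) and -0.01 (249 sites). The part of the chromosomal surroundings in the HoxC values was not tested.

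HoxD also had its strongest sites at promoters, and here the levels of the strongest posterior site were almost equal. A 780 bp site on the same Hoxd11 TSS had 7.08 in WT and 7.06 in DKO. Per length it was the most accessible of all Hox sites, at 173 normalized reads per kb in WT and 171 in DKO, beside a median of 72.5 reads per kb over the Hox sites in WT. The Hoxd13 promoter site, at a gene that specifies digits, had 6.78 and 6.56. A pair of sites within Evx2, the homeobox gene next to Hoxd13, had 6.30 and 6.25, and 4.79 and 4.81.

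The HoxD sites past 1.5-fold in the upward direction lay at Hoxd9 and Hoxd11. The site on the Hoxd9 TSS (chr2:74697720-74698190) had 4.05 in WT and 4.95 in DKO, a difference of 0.90, or 16.6 against 30.9 reads. The Hoxd11 coding site shown above had 3.31 and 4.07 (difference 0.76), or 9.92 against 16.8 reads. It starts 120 bp from the strong Hoxd11 promoter site, whose values were within 0.02 of each other. The Hoxd10 promoter site had 5.53 and 5.76, and a Hoxd11 site near the other TSS, in an intron, had 4.20 and 4.03.

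Towards the anterior end of HoxD the values went both ways. The site on Hoxd1, a 3′ gene and the only listed HoxD gene beyond Hoxd4, had 6.08 in WT and 6.45 in DKO, a difference of 0.37 from 67.6 to 87.4 reads. An intronic Hoxd3 site 4062 bp downstream of the TSS, which also overlaps the noncoding gene Hoxd3os1, had 3.82 and 3.18 (difference -0.64), and was the HoxD site past 1.5-fold downwards. The site 1913 bp upstream of Hoxd12 had 4.51 and 4.47. Over its 11 sites HoxD had a median difference of -0.02, with 6 lower in DKO.

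HoxA had no listed site from Hoxa7 to its posterior end. At its anterior end, a site in an exon of the noncoding gene Hotairm1, 6211 bp downstream of the Hoxa2 TSS, had 5.51 in WT and 5.69 in DKO, and a site in the untranslated region of Hoxa3 had 5.24 and 5.28. These were the highest HoxA sites and differed by 0.18 and 0.04. On the Hoxa5 TSS, a 170 bp site had 4.03 and 3.16 (difference -0.87), or 16.3 against 8.94 reads. A site 1412 bp downstream of the distal Hoxa3 TSS had 4.18 and 3.81. That curated Hoxa3 TSS lies 5′ of Hoxa6, so this site is in the middle of the cluster, although Hoxa3 is a group 3 gene.

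Over the span out to Hoxb13, HoxB had the fewest sites for its length. Its median levels, 3.79 in WT and 4.07 in DKO, were the lowest of the 4 clusters, although lower single sites lay in HoxC and HoxD and, in DKO only, in HoxA. HoxB also had the lowest median site width, 205 bp beside 340 in HoxA, 350 in HoxC and 470 in HoxD. Per length its sites had 53.8 to 131 normalized reads per kb in WT, beside a median of 72.5 over the Hox sites. The 4 HoxB sites had concentrations of 3.65 to 4.71 in WT and 3.60 to 4.57 in DKO. The site 1813 bp upstream of Hoxb1, an early gene expressed in the hindbrain, had 3.73 and 4.57, a difference of 0.84 from 13.3 to 23.8 reads. The site 1146 bp upstream of Hoxb7 went the other way, with 4.71 and 4.15 (difference -0.56, short of 1.5-fold). The sites 3043 bp downstream of Hoxb2 and 6437 bp upstream of Hoxb4 differed by 0.13 and -0.05.

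Across the 4 clusters, 5 of the 35 sites were at least 1.5-fold lower in DKO (14.3%, beside 16.0% of all sites) and 3 at least 1.5-fold higher (8.57%, beside 8.51%). When sites under a concentration of 4 are left out, 28 sites remain, 2 of them lower and 3 higher. Of all sites, 21.4% were lower and 11.8% higher at 4 to under 5 in the higher genotype. The shares were 15.2% and 6.32% at 5 to under 6, and 7.47% and 2.38% at 6 or more. With neighbouring sites up to 500 bp apart summed, 3 of 30 regions are lower and 2 higher. Without this filter or summing, both shares are near those of all listed sites, and the median difference of -0.09 is near the median over all sites. At 2-fold, 1 Hox site was lower and 0 were higher, where 6.48% and 3.08% of all sites were. No replicate test stands behind these counts, since the authors' own test columns were not used.

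The 8 sites past 1.5-fold all had a concentration under 5 in both genotypes. Of 23 Hox sites under 5 in the higher genotype, 8 were past 1.5-fold, and of 12 at 5 or more, 0 were. The largest difference at 5 or more was 0.57 in size, at the Hoxc9 promoter. With neighbouring sites up to 500 bp apart summed, the Hoxc9 promoter and upstream sites together had 6.8 in WT and 6.2 in DKO. That difference of -0.6 is past 1.5-fold. Differences over all listed sites also widen at low levels. The share past 1.5-fold in either direction was 42.3% of sites under 4, 33.2% from 4 to under 5, 21.5% from 5 to under 6 and 9.85% at 6 or more. The Hox shares in these bins were 42.9% of 7 sites, 31.2% of 16, and 0 of 5 and 0 of 7. Set against sites of like level, 30 of the 35 Hox differences (85.7%) lay between the 10th and 90th percentiles, which hold 80% of all sites by construction.

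**Figure D2:**
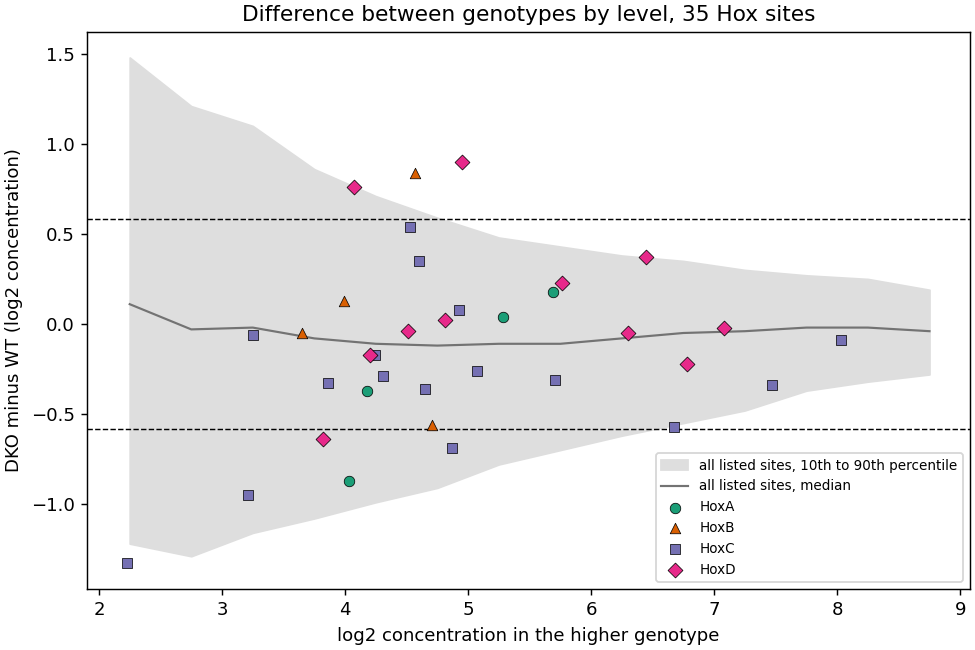
DKO minus WT difference of each Hox site against its log2 concentration in the higher genotype, with the median and the 10th to 90th percentiles of all listed sites in steps of 0.5; dashed lines mark 1.5-fold. By the percentiles of their own step, 30 of the 35 sites lie inside. Hoxd9 (0.90), Hoxb1 (0.84) and the Hoxd11 coding site (0.76) lie above, and the Hoxc4 TSS site (-1.33) and the Hoxc9 promoter site (-0.57) below. The band is drawn by joining the centres of the steps, and the Hoxd11 coding site falls on its drawn edge.

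Hox promoter sites had lower levels than promoter sites over the genome. The 16 Hox sites within 1 kb of a listed TSS had a median concentration of 4.97 in WT and 4.88 in DKO, while the 15001 sites within 1 kb of any curated TSS had 6.70 and 6.72. Median widths were 485 and 750 bp, and concentration counts reads over a whole site. Hoxc4 and Hoxd11 held 3 of the 16 Hox sites each. Of the Hox promoter sites 5 (31.2%) were past 1.5-fold in either direction, and of all promoter sites 7.85% were. The levels differ between these groups, and low sites spread more, so the shares are not alike in precision. The 19 Hox sites farther than 1 kb from a TSS had a median of 4.31 in WT and 4.47 in DKO.

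**Figure D3:**
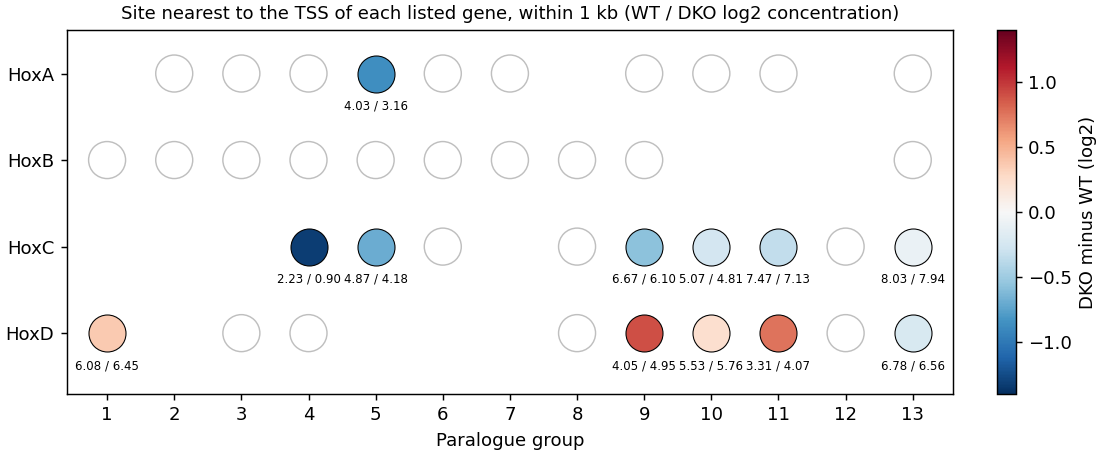
Site nearest to each listed TSS within 1 kb, by cluster and paralogue group, coloured by the DKO minus WT difference, with WT and DKO log2 concentrations beneath; open circles are listed genes without such a site. Of the 12 filled circles, the HoxC and HoxA ones are all lower in DKO, and 4 of the 5 HoxD ones are higher. At Hoxc4 and Hoxd11 the nearest site is a weak one beside stronger sites. The strong site on the Hoxd11 TSS differed by -0.02, so the HoxD count depends on which site is taken.

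By paralogue position, the sites were divided into anterior (groups 1 to 4), central (5 to 8) and posterior (9 to 13) by their nearest listed TSS. Posterior positions had 16 sites with a median WT concentration of 4.96, central ones 7 with 4.31 and anterior ones 12 with 3.86. Concentration counts reads over a whole site and is not corrected for width. Median widths were 460, 240 and 200 bp in the same order. The median differences were -0.07, -0.31 and -0.06. Each position ranged from well below to well above 0, from -0.95 to 0.90 posteriorly, -0.87 to 0.54 centrally and -1.33 to 0.84 anteriorly, so the ranges overlapped widely. The anterior median is 0.11 if sites under a concentration of 4 are left out, so its sign is not stable.

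Single paralogue groups had 1 to 5 sites each. By nearest listed TSS, all sites of groups 1 and 2 were higher in DKO. The differences were 0.37 at Hoxd1, 0.84 at Hoxb1 and 0.04 to 0.18 for the sites nearest to Hoxa2 and Hoxb2. Those nearest to Hoxa2 lie in a Hotairm1 exon (0.18) and in the untranslated region of Hoxa3, a group 3 gene (0.04). Every site assigned to groups 3, 4 and 5 was lower in DKO, beside 57.4% of all listed sites. The median differences of these groups were -0.51, -0.17 and -0.69. Counted by the gene it lies in, the site in the Hoxa3 untranslated region would be an exception. Few clusters stand behind each group, and 4 of the 5 sites in group 4 lie at Hoxc4. In group 5, the pair of Hoxc5 sites lie 10 bp apart, and the Hoxa3 site of group 3 lies in the middle of HoxA. Paralogues did not share a direction in group 9, where the Hoxc9 promoter had 6.67 and 6.10 and Hoxd9 had 4.05 and 4.95. In group 10, Hoxc10 differed by -0.26 and Hoxd10 by 0.23. Group 13 had 4 sites nearest to Hoxc13 or Hoxd13, and all lay between -0.22 and 0.02. They include the pair within Evx2, whereas the sites on the Hoxc13 and Hoxd13 TSSs differed by -0.09 and -0.22.

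**Figure D4:**
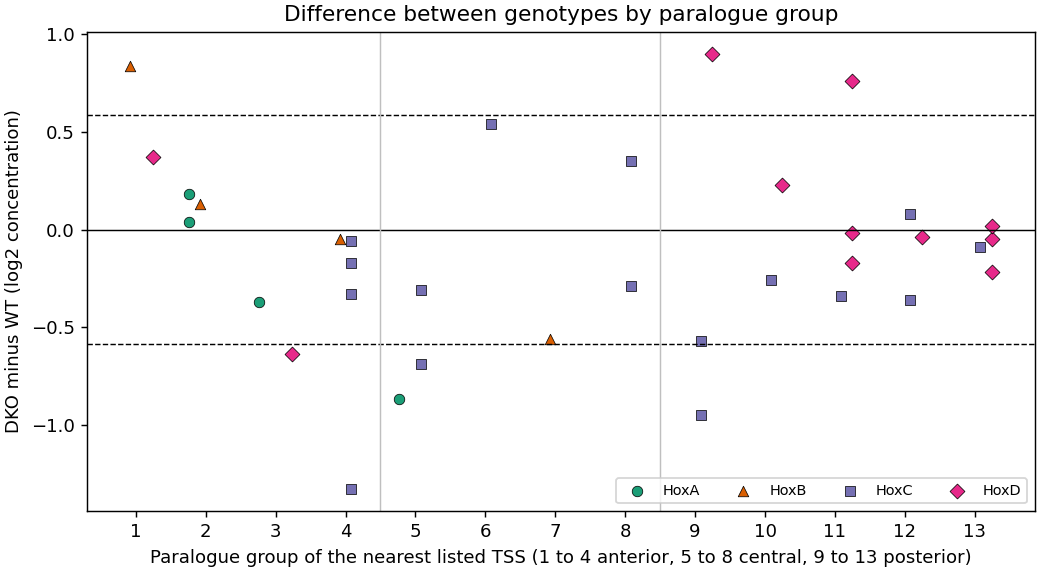
DKO minus WT difference of the 35 Hox sites by paralogue group of the nearest listed TSS, with the 4 clusters by marker and dashed lines at 1.5-fold. By this assignment groups 1 and 2 lie above 0 and groups 3 to 5 below it. Group 13, which takes in the pair of sites within Evx2, stays between -0.22 and 0.02.

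The Hox sites were richer in GC and CpG than other sites. Over 500 bp around the midpoint, the median GC content was 61.0%, against 50.0% for all listed sites, and the median ratio of observed to expected CpG was 0.71 against 0.28. Windows with at least 55% GC and a CpG ratio of at least 0.65 made up 57.1% of Hox sites and 15.0% of all sites. Promoter sites in general are of this kind (64.6% of sites within 1 kb of a curated TSS), but 42.1% of the Hox sites farther than 1 kb from a listed TSS were too. By cluster the share was 72.7% in HoxD, 50.0% in HoxC, and 3 of 4 sites in HoxA and 1 of 4 in HoxB. The 5 sites lower in DKO had a median GC content of 58.0%, with 1 of 5 CpG-rich, and the 3 higher ones had 65.6%, with 2 of 3.

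Matches to short consensus strings were counted on both strands in the same windows. The Smad string CAGACA was present at 7 of 35 Hox sites (20.0%) and in 36.0% of all sites, and the string AATNNACA, used for the Smad partner Foxh1, at 2 sites (5.71%) and in 21.9%. These gaps narrow when the whole sites are searched instead, to 28.6% of Hox sites and 32.9% of all sites for CAGACA, and to 14.3% (5 sites) and 19.7% for AATNNACA. The Hox-Pbx string TGATNNAT was present at 4 sites (11.4%, all sites 14.5%) and the Cdx string TTTATNG at 5 (14.3%, all sites 16.9%). The octamer ATTTGCAT, the CTCF consensus, and the retinoic acid direct repeats spaced by 5 or 2 bases were at 0 of the 35 sites, and in 4.38%, 4.94%, 0.639% and 0.70% of all sites. These strings differ in GC content, and so do the site groups, and the part of base composition in these shares was not tested.

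The palindromic Smad string GTCTAGAC was found at 1 Hox site and in 0.395% of all sites. It lies in the site 4901 bp upstream of Hoxc12, whose values were 4.85 in WT and 4.93 in DKO. It is shown with its surroundings (chr15:102931877-102931976, plus strand), with the match in capitals, since it is the rarest of these strings among all sites.

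Hoxc12: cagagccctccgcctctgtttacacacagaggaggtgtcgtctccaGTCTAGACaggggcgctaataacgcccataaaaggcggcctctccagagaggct

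Of the sites past 1.5-fold, 4 had a Smad or Hox-Pbx string in the window. CAGACA was present at Hoxb1 (higher in DKO), and at Hoxc5 and Hoxd3 (both lower), and TGATNNAT at Hoxa5. The windows at Hoxc4, Hoxd9, Hoxd11 and the upstream Hoxc9 site had no match to any of the 9 strings.

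Genes that work with or regulate Hox genes, and related homeobox genes, were examined by the same rule of 20 kb. The Hox cofactors of the Pbx, Meis and Pknox families, which bind DNA beside Hox proteins, had 32 sites at 9 of 9 genes, of which 7 were at least 1.5-fold higher in DKO and 0 lower, with a median difference of 0.10. The highest difference was 1.34, at a site 16561 bp downstream of the Pbx4 TSS (WT 4.20, DKO 5.54), and the lowest was -0.51, upstream of Meis2 (3.44 and 2.93). The list of Cdx, ParaHox and neighbouring homeobox genes went the other way, with 26 sites at 7 of 9 genes, 6 lower, 0 higher and a median of -0.16. Its extremes were both at Gsx2, a forebrain gene, at -1.15 (4.55 and 3.40) and 0.38 (2.57 and 2.95). This list holds Evx2, so it shares sites with the Hox set, at least the pair of Evx2 sites described above.

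Retinoic acid is a classical inducer of Hox transcription. Its receptors, synthesis and degradation genes had 62 sites, 11 of them at least 1.5-fold lower in DKO (17.7%) and 4 higher (6.45%), with a median difference of -0.12. A site 3203 bp downstream of the TSS of Dhrs3, an enzyme that reduces retinaldehyde, had 5.32 in WT and 3.58 in DKO, a difference of -1.74. At the receptor gene Rarg, a site had 4.83 and 5.61. The Polycomb and trithorax list, which also holds Ctcf, had 71 sites, 2 lower and 4 higher, with a median of 0.16. Its extremes were -0.86 at Cbx7 (3.14 and 2.28) and 2.88 at Mtf2 (1.74 and 4.62). The genes of these lists are described by their counts, beside 16.0% lower and 8.51% higher over all sites, and no difference between the lists was tested.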

How the data were processed

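ATAC-seq libraries of WT and Smad2/3 DKO EpiLCs and 1 Tn5-treated genomic DNA control are described by the labels. Read pairs were mapped to mm10 by the authors (Bowtie2); non-unique, blacklisted and duplicate reads were discarded (SAMtools), and sites were called with DANPOS2 and quantified with DiffBind. Versions, normalization and any shift of read ends for the Tn5 insertion are not given in the sources used here. The deposited values used are log2 concentrations, 1 mean per genotype, so no library or counting error could be computed. The table also holds the overall mean and the authors' fold, p-value and FDR, which were not used.

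Differences, medians and counts at 1.5-fold were computed with Python 3.11.15, numpy 2.4.6 and pandas 2.3.3, and drawn with matplotlib 3.10.9. The 42 curated TSSs (NM or NR transcripts) of the 38 genes came from RefSeq on GRCm38.p6, the assembly of mm10, and 0 sites ran past a chromosome end. Each site was assigned to its nearest listed TSS. Named were all listed genes with a site within 1 kb, every Hox site past 1.5-fold, the highest, most negative and most positive site of each cluster, and the most extreme sites of other lists; the further sites given complete the 35. Sequence was read from the same assembly, taking the listed start as the base before the site. The retinoic acid repeats are 2 copies of a degenerate half-site. The distance and motif searches were checked on simulated data. Members and lists were chosen with earlier results of these data known. Alternatives were other windows, filters, centring, summed levels, annotations and, after the data were seen, neighbouring sites summed.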

Additional observations from a re-analysis of the deposited data

How the results depend on the processing

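Of 90 values recomputed under alternatives, 79 stayed within 1.5 times (counts) or 0.1 log2 (medians) of the reported value. The count of Hox sites at least 1.5-fold lower in DKO was 5, and became 2 with a concentration of at least 4, 3 with neighbouring sites up to 500 bp apart summed (30 regions, added after the data were seen) and 1 at 2-fold, where the count higher was 0. The count at least 1.5-fold higher stayed at 3 with a concentration of at least 4, and was 2 with neighbouring sites summed. The HoxA median (-0.17) was -0.27 within 50 kb and -0.05 from summed levels. The HoxB median (0.04) was 0.14 at a concentration of at least 4, with 2 sites left. The anterior median (-0.06) was -0.17 within 50 kb, 0.11 at a concentration of at least 4 and 0.11 from summed levels, so its sign changed. Foxh1 strings were in 5 Hox sites (14.3%, all sites 19.7%) when whole intervals were searched. The cause of these changes was not tested. The HoxC median stayed between -0.30 and -0.22. No paired analysis was possible because the deposited table holds only means per genotype, without single libraries, and leaving out differentiations was not run for the same reason.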
